A study of Homo sapiens with 16 samples.

Results

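The genes of 9 transcriptional corepressor subunits (HDAC1, HDAC2, HDAC3, NCOR1, TBL1XR1, SIN3A, SIN3B, CBFA2T2 and CBFA2T3) were followed by PRO-seq during acute loss of SMARCA5. PRO-seq maps engaged RNA polymerase by sequencing nascent RNA that nuclei extend with a biotin-labelled nucleotide. The members were chosen by symbol, and each matched 1 of the 10304 RefSeq transcripts listed on hg19. All libraries came from Kasumi-1, a human leukaemia line of the myeloid lineage with the RUNX1-RUNX1T1 fusion. SMARCA5, the motor protein of ISWI remodellers that space nucleosomes, had been fused to FKBP12F36V on both of its alleles, and dTAG-47 sends the tagged protein for degradation. Tagged cells were untreated (0 h, n = 5) or exposed to 500 nM dTAG-47 for 2 h (n = 3), 6 h (n = 4) or 24 h (n = 2). The tag was therefore present in every group, and the tagged cells were not compared with the parental line. The sources do not say whether the tagged line is 1 clone or whether libraries of a time came from separate cultures, so p-values measure the spread between these libraries. RUNX1T1, the founding ETO gene, is not analysed here.

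ETO-family proteins do not bind DNA themselves. They are brought to chromatin by transcription factors and act as scaffolds for NCOR and SIN3 complexes, whose histone deacetylases remove acetyl groups and lower transcription. The RUNX1-RUNX1T1 fusion joins the DNA-binding domain of RUNX1 to most of ETO, and so carries the same scaffold to RUNX1 sites.

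Libraries held 11182894 to 34209362 reads in gene bodies and 1667950 to 7171601 near promoters. Libraries are named by letter within 3 runs, which follow a header code that is explained nowhere in the sources. Run 1 held untreated libraries A and B and a 2 h library. Run 2 held 2 libraries of every time. Run 3 held 1 untreated library and both remaining 6 h libraries, so 24 h was measured in run 2 alone. Untreated libraries A and B of run 1 lay far from the other 12 along the leading principal component of gene-body reads (scores of -46.6 and -37.1, against -10.1 to 28.4), and each call on a member that changed in a refit without both is given both ways. SMARCA5, whose tag acts on the protein, changed by -0.27 ± 0.12, -0.11 ± 0.12 and -0.18 ± 0.14 on the log2 scale at 2, 6 and 24 h, none of which passed the test (edgeR, adjusted p = 0.0779, 0.519 and 0.408). Of 9 myeloid progenitor markers 8 were listed (5.44 to 3799 CPM at 0 h), and of the lymphoid markers 0 of 5 and of the erythroid markers only KLF1 (19.8 CPM).

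RefSeq promoter windows (250 bases before to 50 after a start site, build GRCh38.p14) were searched for 8 motifs on both strands. The table held windows for all 9 genes. The window's start site lay within 50 bp of the counted transcript's start for 4 of them (HDAC1, HDAC3, NCOR1 and SIN3A), at 86 bp for TBL1XR1 and 137 bp for HDAC2. For SIN3B, CBFA2T2 and CBFA2T3 it lay 33867, 72255 and 35854 bp away, so those windows do not describe the counted promoters. The 3 windows below, chosen after their values were seen, belong to the genes with the lowest promoter-proximal estimates after dTAG-47. Capitals mark every match to a searched motif, and positions count from 0 at the start site.
HDAC1, chr1:32291833-32292132, plus strand: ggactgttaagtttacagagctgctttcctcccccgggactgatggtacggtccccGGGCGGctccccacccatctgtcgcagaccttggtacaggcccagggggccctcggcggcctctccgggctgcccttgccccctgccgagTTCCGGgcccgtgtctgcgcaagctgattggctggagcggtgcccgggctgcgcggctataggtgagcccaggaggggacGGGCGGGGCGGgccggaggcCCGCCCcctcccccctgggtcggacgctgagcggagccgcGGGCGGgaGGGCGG
HDAC2, chr6:113971099-113971398, minus strand: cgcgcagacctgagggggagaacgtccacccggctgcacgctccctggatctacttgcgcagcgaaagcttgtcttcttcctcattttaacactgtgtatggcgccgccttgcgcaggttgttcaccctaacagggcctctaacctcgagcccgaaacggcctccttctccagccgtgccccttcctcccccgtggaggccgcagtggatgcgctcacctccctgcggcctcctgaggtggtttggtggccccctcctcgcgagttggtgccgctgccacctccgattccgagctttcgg
NCOR1, chr17:16215485-16215784, minus strand: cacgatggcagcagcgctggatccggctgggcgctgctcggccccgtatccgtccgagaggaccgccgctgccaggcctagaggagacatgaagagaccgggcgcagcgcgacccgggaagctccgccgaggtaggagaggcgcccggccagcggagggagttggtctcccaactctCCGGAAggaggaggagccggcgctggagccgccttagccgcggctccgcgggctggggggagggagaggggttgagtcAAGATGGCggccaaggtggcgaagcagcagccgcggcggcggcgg

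The HDAC1 window held 6 matches to the Sp box GGGCGG, a letter string present in 45.0% of 35116 windows, and 1 to the ETS core CCGGAA at -104 (17.2% of windows). The NCOR1 window held the ETS core at -73 and the YY1 string AAGATGGC at 5, just past the start site (2.89% of windows). The HDAC2 window held none of the 8 strings, which also included the RUNX sites TGTGGT (13.1%) and TGCGGT (7.29%), TATAAA (11.5%), the NRF1 string GCGCATGC (3.05%) and the E-box CACGTG (7.26%). The 3 windows were 73.7%, 64.0% and 72.7% G or C, with 28, 24 and 35 CpG dinucleotides. Neither RUNX string was found in the window nearest the counted start of HDAC1, HDAC2, HDAC3, NCOR1, TBL1XR1 or SIN3A. These matches describe letters only.

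In untreated cells the 9 genes were transcribed over a range of levels. TBL1XR1, a WD40 adaptor of the NCOR complex, held 6.63 ± 1.19 CPM per kb of transcript span (SD, n = 5), above 92.9% of all listed transcripts. SIN3A, the scaffold of the SIN3 deacetylase complex, held 5.96 ± 0.895 and HDAC2, a class I deacetylase shared by the SIN3, NuRD and CoREST complexes, 4.51 ± 0.930. The libraries of each of these neighbours overlapped. HDAC1, the close paralog of HDAC2, followed at 2.80 ± 0.155, and its highest library (3.06) lay below the lowest of HDAC2 (3.69). HDAC3, the catalytic subunit of NCOR complexes, held 2.14 ± 0.162 and SIN3B, the second SIN3 scaffold, 1.95 ± 0.306, with overlapping libraries. NCOR1, the corepressor scaffold itself, held 1.19 ± 0.106 CPM per kb. The ETO-family genes CBFA2T3 (1.09 ± 0.160) and CBFA2T2 (0.995 ± 0.0541), which encode MTG16 and MTGR1, overlapped with it. CBFA2T2 stood above 22.2% of listed transcripts. By listed coordinates no member overlapped another transcript, whereas 1296 of all 10304 did. HDAC3 (NM_003883, chromosome 5, 141000443 to 141016423 on hg19) lies with its start 94 bp from RELL2, and with the strand of counting not given their promoter reads cannot be told apart. HDAC1 (chromosome 1, 32757708 to 32799224) ends 216 bp from MARCKSL1.

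At 2 h, 5 of the 9 genes passed the test in the gene body, 4 lower and 1 higher. HDAC2, TBL1XR1, NCOR1 and SIN3A fell and CBFA2T2 rose. Among all transcripts 38.6% were called at that time, so a call at 2 h was common in these cells. With both untreated libraries of run 1 left out, 2546 transcripts were called at 2 h in place of 3979. Of the 5 members all but NCOR1 stayed called. That refit leaves run 1 with no untreated library, so its 2 h library no longer bears on the 2 h change. In the fit of all libraries the members' median log2 change was -0.13, with 7 of 9 lower, against 0.014 over all transcripts. In bulk nuclei, fewer cells transcribing a gene and less transcription per cell cannot be told apart, and CPM are relative to the rest of the library.

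**Figure D1:**
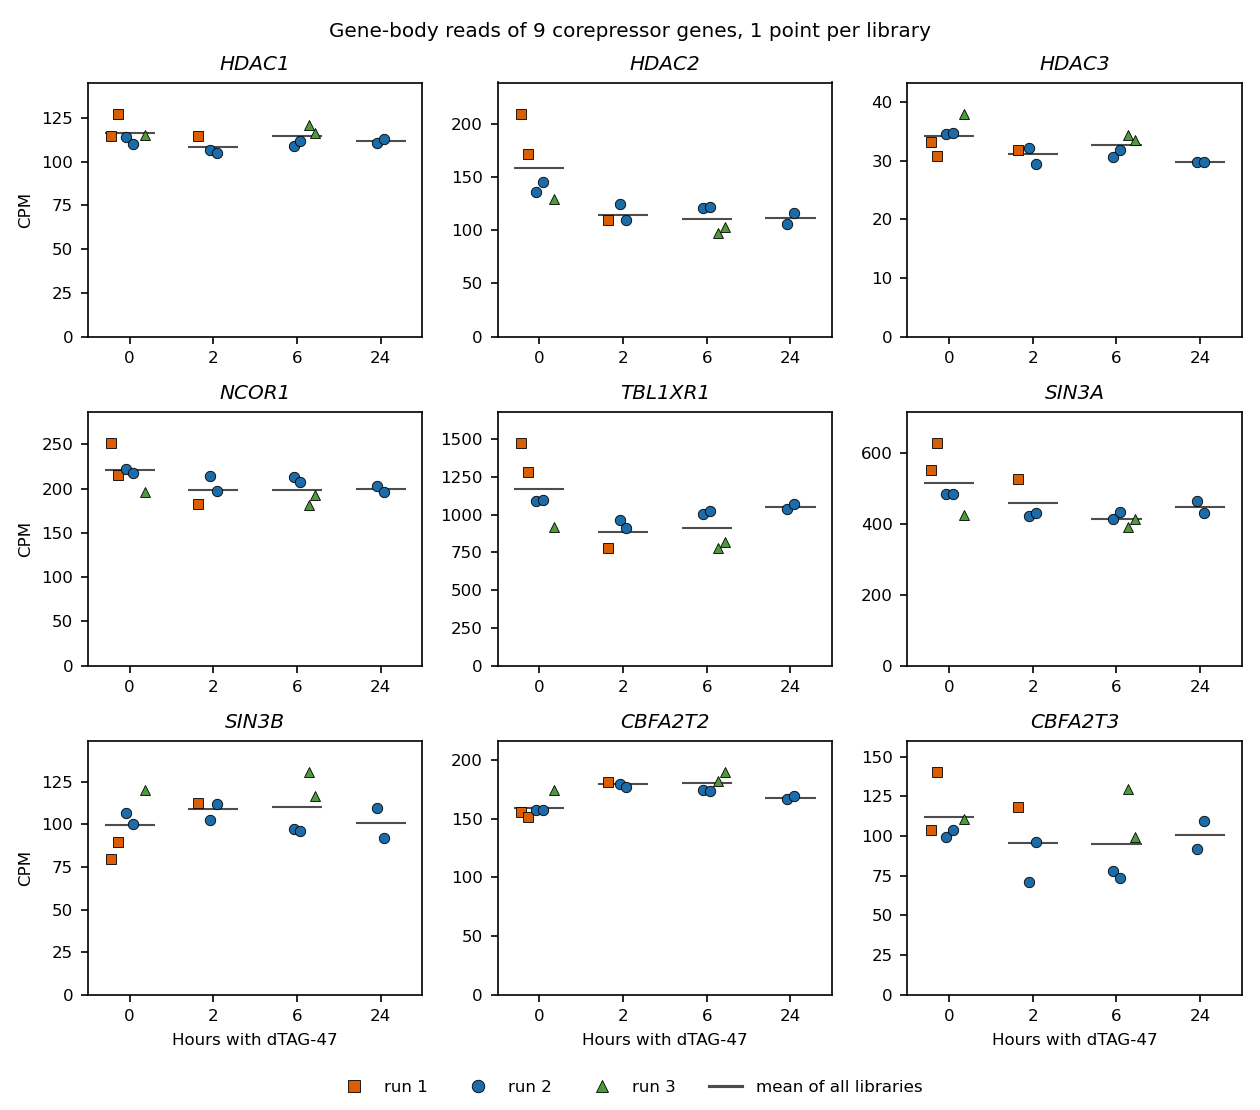
Gene-body reads of the 9 genes in CPM (y axis, from 0) by hours with dTAG-47 (x axis), with 1 point per library, shape and colour for the run and a line at the mean of each time. HDAC2 lies lower in every treated library than in every untreated one. The 2 untreated libraries of run 1 are the highest for HDAC2, TBL1XR1 and SIN3A.

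HDAC2 (NM_001527, chromosome 6, 114257320 to 114292359 on hg19) was the one member called at all 3 times. Untreated libraries held 209 and 172 CPM in run 1, 136 and 145 in run 2 and 129 in run 3. At 2 h they held 109 CPM in run 1 and 124 and 110 in run 2. At 6 h they held 121 and 122 in run 2 and 97.6 and 103 in run 3, and at 24 h 106 and 116. The highest treated library thus lay below the lowest untreated one at each time, and the treated libraries were also lower within each run. The share of all transcripts that separate in this way is not given, here or for the genes below. Nor is the share called at all 3 times. In edgeR with a run term, the change was -0.48 ± 0.10 at 2 h (log2, SE; adjusted p = 0.00325), -0.34 ± 0.10 at 6 h (0.0262) and -0.46 ± 0.13 at 24 h (0.0222). These are folds of 0.715, 0.791 and 0.728. The 2 h change was -0.26 in run 2 alone (adjusted p = 0.00342). It was -0.29 without both untreated libraries of run 1 or without the 2 h library of run 1, and stayed called. Each of these fits leaves run 2 as the only run with both 0 h and 2 h libraries. With the run term they rest on nearly the same comparison and are not separate checks. The 24 h call ended without either 24 h library (adjusted p = 0.185 and 0.0813) and without the run term (0.0586). The 6 h call ended when any of 4 libraries was left out, with adjusted p of 0.0507 to 0.127.

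TBL1XR1 (NM_024665, chromosome 3, 176738542 to 176915048), whose protein helps exchange corepressors for coactivators, fell at 2 h. Untreated libraries held 1471 and 1278 CPM in run 1, 1086 and 1098 in run 2 and 919 in run 3. At 2 h they held 778 CPM in run 1 and 962 and 908 in run 2. The 2 h libraries of run 2 overlapped with the untreated library of run 3, but within each run every 2 h library lay below every untreated one. The change was -0.45 ± 0.094 (edgeR, adjusted p = 0.00278), a fold of 0.730. It was -0.22 in run 2 alone and -0.24 without both untreated libraries of run 1, or without the 2 h library of run 1. It was called in each, but again only run 2 then held both 0 h and 2 h libraries, so these are not separate checks. The 2 h change was -0.41 and not called without the run term (adjusted p = 0.0649). At 6 h libraries held 1005 and 1027 CPM in run 2 and 779 and 819 in run 3, and at 24 h 1034 and 1069 in run 2. The changes were -0.22 ± 0.093 at 6 h (adjusted p = 0.101) and -0.17 ± 0.11 at 24 h (0.305), with every treated library below the untreated ones of its run. Without both untreated libraries of run 1 they were -0.14, which was called (0.00939), and -0.073 (0.243). Set directly against 2 h, the gene body held 0.24 ± 0.11 more at 6 h and 0.28 ± 0.11 more at 24 h on the log2 scale, neither past the test (edgeR, adjusted p = 0.268 and 0.207). In run 2 alone both differences were called, at 0.12 and 0.17 (adjusted p = 0.0388 and 0.00321). Without both untreated libraries of run 1 only the 24 h difference was (0.17, adjusted p = 0.0437). Over all 9 genes 0 were called for 6 h against 2 h, where 1.58% of transcripts were, and 0 for 24 h against 2 h, where 4.08% were. TBL1XR1 alone reached an unadjusted p under 0.05 in both (edgeR, 0.0411 and 0.0276). Of all 10304 transcripts 1787 reached it for 6 h against 2 h and 1857 for 24 h against 2 h.

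NCOR1 (NM_006311, chromosome 17, 15933408 to 16118874) fell by a small margin at 2 h. Untreated libraries held 251 and 215 CPM in run 1, 222 and 218 in run 2 and 197 in run 3. Libraries at 2 h held 182 CPM in run 1 and 214 and 197 in run 2, and overlapped with the untreated ones across runs but not within them. The change was -0.19 ± 0.069 (edgeR, adjusted p = 0.0406), and it was -0.098 without the 2 h library of run 1 (0.358) and -0.095 without both untreated libraries of run 1 (0.217). The call held in 4 of the 14 fits that each left out 1 library. At 6 and 24 h the changes were -0.098 ± 0.069 and -0.18 ± 0.085 and were not called (adjusted p = 0.314 and 0.138). In run 2 alone the 24 h change of -0.14 was called (0.0321).

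SIN3A (NM_001145357, chromosome 15, 75661720 to 75748124) also fell by a small margin. Untreated libraries held 552 and 628 CPM in run 1, 484 and 485 in run 2 and 426 in run 3. At 2 h they held 527 CPM in run 1 and 423 and 430 in run 2. Every 2 h library lay below the untreated ones of its run, while the groups overlapped across runs. The change was -0.16 ± 0.055 (edgeR, adjusted p = 0.0324), close to the -0.18 of run 2 alone (0.00337), and the call held in 7 of 14 fits that left out 1 library. At 6 h it was -0.15 ± 0.055 (adjusted p = 0.0649) and at 24 h -0.090 ± 0.067 (0.363). The 6 h change was -0.14 and called (0.0176) without both untreated libraries of run 1. SIN3B (NM_015260, chromosome 19, 16940209 to 16991164), its paralog, went the other way at 2 h, at 0.20 ± 0.087, without passing the test (adjusted p = 0.0768). Its 2 h library of run 1 held 112 CPM, against 79.8 and 89.9 in the untreated libraries of that run. In run 2 the 2 h libraries held 102 and 112, against 107 and 100 untreated. The SIN3B estimate at 2 h was 0.40 in run 1 and 0.048 in run 2, a difference between runs that did not pass the test (adjusted p = 0.0906), and at 6 and 24 h the estimates were -0.0019 and 0.040. Its 2 h estimate was 0.080 (0.533) without both untreated libraries of run 1. Without untreated library A or 2 h library A of run 2 it was called (0.26 and 0.27, edgeR, adjusted p = 0.0415 and 0.0323).

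CBFA2T2 (NM_001032999, chromosome 20, 32077928 to 32237837) was the only member called higher in the gene body in the fit of all libraries. Untreated libraries held 156 and 152 CPM in run 1, 157 and 157 in run 2 and 174 in run 3. At 2 h they held 181 in run 1 and 179 and 177 in run 2, at 6 h 175 and 174 in run 2 and 182 and 189 in run 3, and at 24 h 166 and 169. All 2 h libraries lay above all untreated ones, and at 6 and 24 h this held within runs but not across them. The change was 0.20 ± 0.048 at 2 h (edgeR, adjusted p = 0.00681), a fold of 1.15, and the call held in each of the 14 fits that left out 1 library. Without a run term it was 0.17 (adjusted p = 0.0780). At 6 h it was 0.14 ± 0.048 and just missed the test (adjusted p = 0.0520), while DESeq2 with the same terms called it (0.0442), as did edgeR without both untreated libraries of run 1 (0.13, adjusted p = 0.0218), and at 24 h it was 0.094 ± 0.059 (0.277). CBFA2T3 (NM_005187, chromosome 16, 88941263 to 89043504), its relative, was not called at any time over all libraries, with changes of -0.13 ± 0.14, -0.21 ± 0.14 and 0.10 ± 0.17. Its libraries spread widely. In run 2 those at 6 h held 78.0 and 73.8 CPM, against 99.6 and 104 untreated (-0.42, adjusted p = 0.00227 in run 2 alone). The 2 h change was called in run 2 alone too (-0.27, adjusted p = 0.0330). In run 3 the 6 h libraries held 130 and 99.3 CPM, against 111 untreated.

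HDAC1 (NM_004964) and HDAC3 did not pass the test in the gene body at any time. HDAC1 held 110 to 127 CPM in untreated cells, 105 to 115 at 2 h, 109 to 121 at 6 h and 111 and 113 at 24 h. Its changes of -0.074 ± 0.055, 0.0036 ± 0.056 and 0.010 ± 0.068 had intervals of 2 SE reaching no lower than -0.18 at 2 h, whereas the interval of HDAC2 at 2 h ran from -0.69 to -0.28. HDAC3 held 30.8 to 37.9 CPM in untreated cells, 29.5 to 32.2 at 2 h, 30.7 to 34.4 at 6 h and 29.8 in both libraries at 24 h. Both 24 h libraries lay below all 5 untreated ones, yet the change of -0.19 ± 0.093 was not called (edgeR, adjusted p = 0.161).

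**Figure D2:**
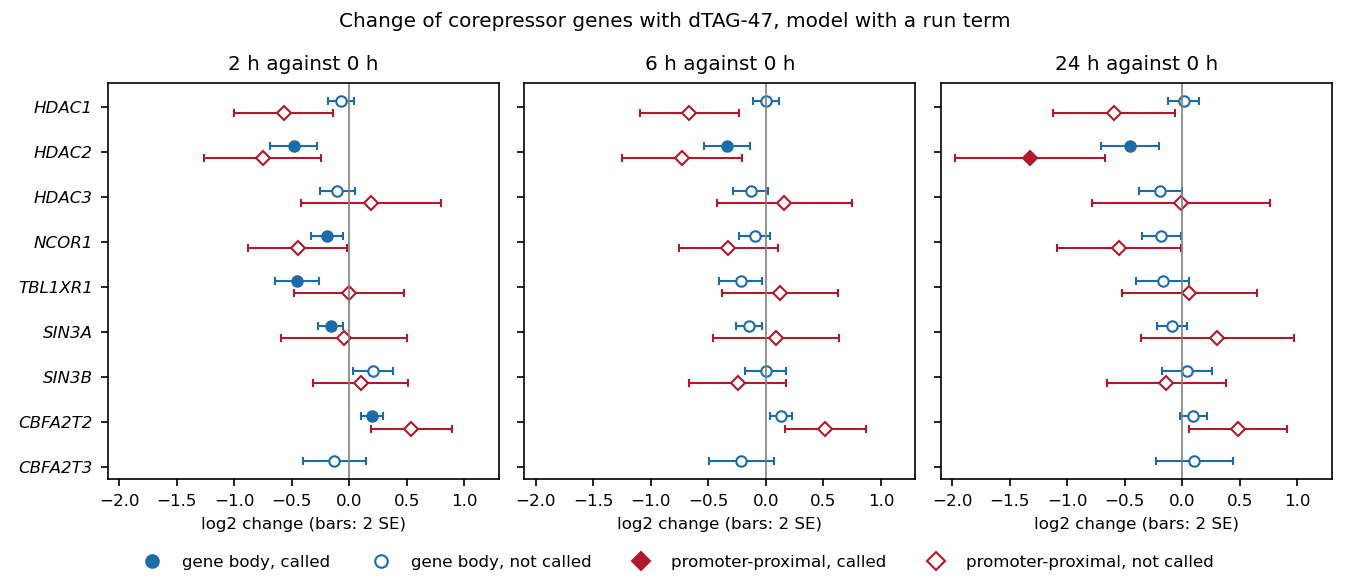
Log2 change of each gene at 2, 6 and 24 h against 0 h (x axis; bars, 2 SE) from edgeR with a run term, for gene bodies (circles) and promoter-proximal regions (diamonds), filled where the adjusted p was under 0.05. HDAC2 is the only gene filled in all 3 gene-body columns, and promoter-proximal intervals are wider throughout.

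At 6 h, 1 of the 9 genes (HDAC2) was called in the gene body, where 26.8% of all transcripts were. An unadjusted p under 0.05 in edgeR was found for 4 of the 9, and for 4003 of all 10304 transcripts. The members' median was -0.13, with 7 of 9 lower, against 0.012 over all transcripts. At 24 h again only HDAC2 was called, where 19.8% of transcripts were. The median was -0.090 with 5 of 9 lower, against 0.011 over all. The authors' deposited tables call the same 5 members at 2 h, HDAC2 and CBFA2T2 at 6 h, and HDAC2 at 24 h. For HDAC2 they give log2 fold changes of -0.49, -0.34 and -0.46 at 2, 6 and 24 h in the authors' deposited tables.

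The size of the 2 h change differed between runs for 2 members, in a test whose 2 h arm in run 1 is 1 library, assumed to vary like the other groups. HDAC2 at 2 h held 109 CPM in run 1, against an untreated mean of 190 (-0.80). In run 2 it averaged 117, against 141 (-0.26). For TBL1XR1 the means were 778 at 2 h against 1375 untreated in run 1 (-0.82), and 935 against 1092 in run 2 (-0.22). The difference between the runs was -0.54 ± 0.15 for HDAC2 (edgeR, adjusted p = 0.0195) and -0.60 ± 0.10 for TBL1XR1 (0.00153). It was called for 28.3% of all transcripts, so differences of this kind were frequent. For HDAC2 it was not called without untreated library A or 2 h library A of run 2 (adjusted p = 0.0766 and 0.0802). Run 1 held the untreated libraries that stood apart, and their part in these differences was not tested. For the 6 h change, run 3 against run 2, 0 of the 9 genes were called, where 0.437% of transcripts were, and 0 had an unadjusted p under 0.05 in edgeR.

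**Figure D3:**
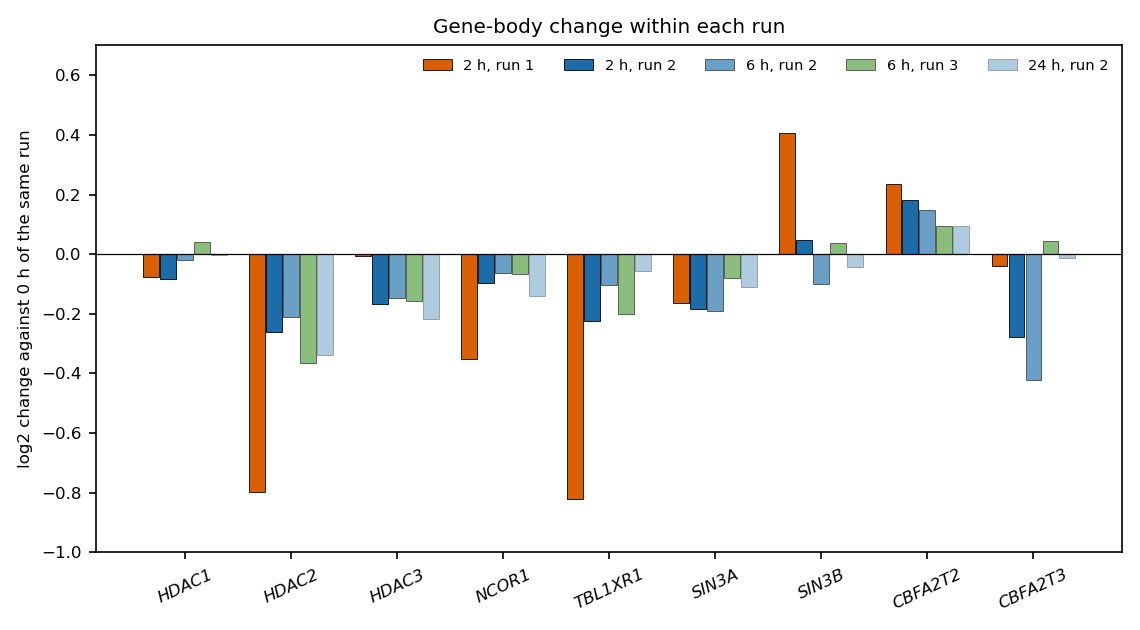
Gene-body log2 change of each gene against the untreated libraries of its own run (y axis), as 1 bar for 2 h in run 1, 2 h in run 2, 6 h in run 2, 6 h in run 3 and 24 h in run 2. All 5 bars point down for HDAC2, HDAC3, NCOR1, TBL1XR1 and SIN3A and up for CBFA2T2. For HDAC3 the 2 h bar of run 1 is very short (-0.0070). The 2 h bars of run 1 are the longest for HDAC2 (-0.80) and TBL1XR1 (-0.82). The share of all transcripts with all bars on 1 side is not given here.

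Near promoters the reads were sparser, and only HDAC2 at 24 h passed the test. Of the 9 genes 8 passed the filter on low counts. CBFA2T3 did not, with 2 to 16 reads per library near its counted start, against 884 to 4230 in its body. At 2 h 0 of the 8 were called, where 4.61% of transcripts were. An unadjusted p under 0.05 in edgeR was found for 4 of the 8, and for 2143 of all 9980 transcripts. At 6 h 0 were called (2.24% of all transcripts) and 3 had an unadjusted p under 0.05, as did 1613 of all 9980 transcripts. At 24 h 1 was called, where 1.41% were. With DESeq2, CBFA2T2 was called at 2 h (0.53, adjusted p = 0.0395). The authors' deposited tables call 0 members near promoters at all 3 times.

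**Figure D4:**
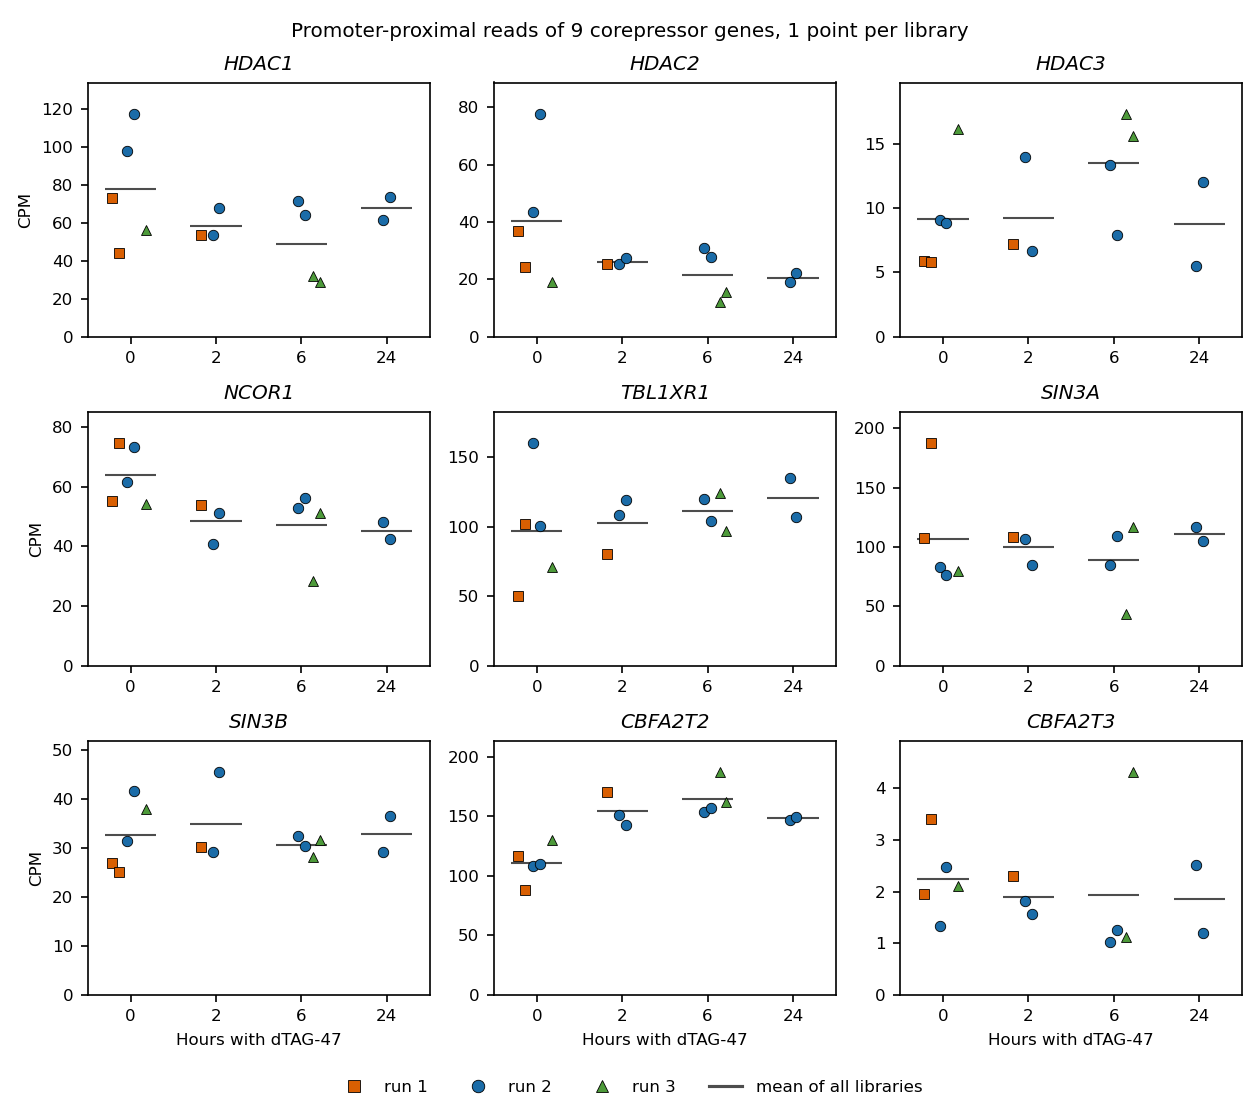
Promoter-proximal reads of the 9 genes in CPM of promoter-proximal reads (y axis, from 0) by hours with dTAG-47 (x axis), with 1 point per library, shape and colour for the run and a line at the mean of each time. All treated libraries of CBFA2T2 lie above all untreated ones, and the untreated libraries of HDAC1 and HDAC2 spread over a wide range.

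HDAC2 near its promoter held 36.7 and 24.3 CPM in the untreated libraries of run 1, 43.3 and 77.6 in run 2 and 18.9 in run 3. Libraries at 2 h held 25.2 in run 1 and 25.5 and 27.4 in run 2. Those at 6 h held 30.9 and 27.8 in run 2 and 12.0 and 15.6 in run 3, and those at 24 h 19.1 and 22.0. Treated and untreated libraries overlapped across runs. Within run 2 every treated library lay below both untreated ones. The change was -0.75 ± 0.25 at 2 h (edgeR, adjusted p = 0.0888), -0.73 ± 0.26 at 6 h (0.158) and -1.33 ± 0.33 at 24 h (0.0465), the last a fold of 0.399. The 24 h call ended without the run term (-0.96, adjusted p = 0.507) and in 8 of 14 fits that left out 1 library. Without untreated library B of run 2 the change was -0.94 (0.221). In run 2 alone all 3 times were called (-1.17, -1.02 and -1.54), and also without both untreated libraries of run 1 (-1.09, -0.83 and -1.45, adjusted p = 0.0411, 0.0475 and 0.0128).

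HDAC1 near its promoter held 73.0 and 44.2 CPM in the untreated libraries of run 1, 98.0 and 117 in run 2 and 56.5 in run 3. At 2 h it held 53.4 in run 1 and 53.4 and 67.7 in run 2, and at 6 h 71.5 and 64.3 in run 2 and 31.8 and 28.8 in run 3. At 24 h it held 61.7 and 73.6. Treated libraries lay below the untreated ones of their run in runs 2 and 3 but not in run 1. The changes of -0.57 ± 0.22, -0.66 ± 0.21 and -0.59 ± 0.27 were not called (edgeR, adjusted p = 0.128, 0.117 and 0.297). Without untreated library B of run 1 those at 2 and 6 h were called (-0.73 and -0.71, adjusted p = 0.0347 and 0.0413), and in run 2 alone all 3 were. Without both untreated libraries of run 1 the changes at 2 and 6 h were also called (-0.86 and -0.75, adjusted p = 0.0363 and 0.0176). In the gene body of HDAC1 the estimates lay between -0.074 and 0.010. The promoter minus body change was -0.51 ± 0.25 at 2 h and -0.65 ± 0.25 at 6 h (limma, adjusted p = 0.304 and 0.325).

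CBFA2T2 near its promoter held 117 and 88.1 CPM in the untreated libraries of run 1, 108 and 110 in run 2 and 130 in run 3. Libraries at 2 h held 171 in run 1 and 151 and 143 in run 2, and those at 6 h 154 and 157 in run 2 and 187 and 162 in run 3. Those at 24 h held 147 and 150. Every treated library therefore lay above every untreated one, a separation that no other member showed near its promoter at all 3 times. How many of all transcripts separate in this way is not given here. The changes were 0.54 ± 0.18, 0.52 ± 0.18 and 0.48 ± 0.21, and none passed the test over all transcripts (edgeR, adjusted p = 0.0789, 0.141 and 0.292). NCOR1 lay lower in every 2 h library (40.6 to 54.0 CPM) and in both 24 h libraries (42.4 and 48.2) than in the untreated ones (54.4 to 74.5), with changes of -0.45 ± 0.22 and -0.55 ± 0.27 (adjusted p = 0.233 and 0.336). TBL1XR1, whose body fell at 2 h, showed a promoter change of 0.0010 ± 0.24 at that time. HDAC3, SIN3A and SIN3B had promoter changes from -0.24 to 0.30 over the 3 times, with SE of 0.21 to 0.39.

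The test of promoter-proximal against gene-body change called 0 of the 8 genes at 2 h, where 1.15% of transcripts were called, 0 at 6 h (0.401%) and 0 at 24 h (0.271%). Unadjusted p-values under 0.05 in limma were found for 0, 1 and 1 of the 8, and for 1741, 1103 and 1191 of all 9980 transcripts. In untreated cells the promoter-proximal share of a gene's reads was 11.5% ± 7.54 for HDAC1 and 11.1% ± 3.64 for CBFA2T2 (SD, n = 5), against 0.359% ± 0.155 for CBFA2T3 and 1.70% ± 1.20 for TBL1XR1. The window lengths are not given, so these shares describe each gene's reads and not its pausing. For HDAC1 the share was 17.2% and 21.8% in untreated libraries of run 2, against 5.78% to 11.0% in its treated ones. In run 3 it was 7.24% untreated and 3.67% and 3.28% at 6 h. In run 1 it was 6.50% and 4.78% untreated and 8.30% at 2 h. Shares use raw reads, so they carry each library's promoter total. Untreated libraries of run 2 held 3962548 and 2900545 promoter reads, beside 16138846 and 11199143 in bodies. Treated ones held 1667950 to 2592024, beside 11182894 to 14133770. How far this moved the HDAC1 shares was not tested.

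Partner genes of the same complexes were read from 7 lists with 85 measured members that are not among the 9. Of these, 12 rose and 17 fell at 2 h, 10 rose and 12 fell at 6 h, and 5 rose and 4 fell at 24 h, with median log2 changes of -0.096, -0.023 and -0.022. Called partners were thus 34.1%, 25.9% and 10.6% at 2, 6 and 24 h, near or below the 38.6%, 26.8% and 19.8% of all transcripts. Without both untreated libraries of run 1, 24, 38 and 19 partners were called. That refit called 2546, 3879 and 3053 of all 10304 transcripts, in place of 3979, 2762 and 2045. Its counts for each list below are to be read beside these totals. Of the 29 partners called at 2 h in the fit of all libraries, 18 stayed called and 11 did not, while all 22 at 6 h and all 9 at 24 h did. Among partners named below, TBL1X, KDM4A, HDAC8, TLE4 and BCORL1 lost their 2 h call in that refit (adjusted p of 0.0612 to 0.434). Among NCOR complex partners, 5 of 7 were measured, of which 60% were called at 2 h and 60% at 6 h. GPS2, which links NCOR to TBL1 proteins, rose at 2 h (1.10 ± 0.17) and 6 h (0.66 ± 0.18), and KDM4A, a histone lysine demethylase, rose by 0.30 ± 0.075 and 0.26 ± 0.076. TBL1X, the X-linked relative of TBL1XR1, fell at the same times (-0.29 ± 0.080 and -0.26 ± 0.082), and 0 of the 5 were called at 24 h (edgeR, adjusted p of the smallest, for GPS2, 0.0850). KDM4A overlaps the listed LOC100132774 and GPS2 lies 196 bp from EIF5A, so some of their reads may belong to those genes. The median of this list was -0.0076, -0.19 and 0.13 at the 3 times.

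Among 21 measured SIN3 subunits, 3 rose and 4 fell at 2 h, 2 rose and 2 fell at 6 h, and 0 were called at 24 h. Medians were -0.035, -0.016 and -0.031. Called shares were 33.3%, 19% and 0%, against 38.6%, 26.8% and 19.8% of all transcripts. The refit without both untreated libraries of run 1 called 5, 8 and 1. FAM60A, a SIN3-HDAC subunit, fell at 2 h (-0.44 ± 0.067) and 6 h (-0.39 ± 0.067). BRMS1 rose at 2 h (0.59 ± 0.13), and SUDS3, which binds SIN3A, rose by 0.22 ± 0.058 and 0.24 ± 0.058. Of 11 NuRD subunits 0 were called at 2 h, with a median of -0.13. GATAD2A (-0.23 ± 0.061) and MTA1 (-0.35 ± 0.11) fell at 6 h and MBD3 rose at 24 h (0.33 ± 0.11). The medians at 6 and 24 h were -0.016 and -0.0076. Called shares of this list were 0%, 18.2% and 9.09%, and the same refit called 0, 3 and 3.

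Of 12 CoREST and MiDAC subunits, 4 fell at 2 h, 3 at 6 h and 2 at 24 h, and 0 rose, with medians of -0.15, -0.071 and -0.010. Called shares were 33.3%, 25% and 16.7%, below the 38.6%, 26.8% and 19.8% of all transcripts. Without both untreated libraries of run 1, 4 fell at 2 h, 1 rose and 4 fell at 6 h, and 1 rose and 2 fell at 24 h. KDM1A, the histone demethylase of CoREST, fell at all 3 times (-0.44 ± 0.078, -0.47 ± 0.077 and -0.37 ± 0.095). TRERF1, a MiDAC subunit, fell at 2 h (-0.29 ± 0.060) and 6 h (-0.24 ± 0.059), and PHF21A, a CoREST subunit, fell at 2 h (-0.24 ± 0.051). Of 12 other deacetylases measured, 5 rose and 1 fell at 2 h, 5 rose and 1 fell at 6 h, and 4 rose at 24 h, with medians of 0.30, 0.20 and 0.12. Called shares of this list were 50.0%, 50.0% and 33.3%, against 38.6%, 26.8% and 19.8% of all transcripts. Of its called members 83.3%, 83.3% and 100% were higher, against 51.1%, 50.2% and 54.2% of all called transcripts. The refit without both untreated libraries of run 1 called 5, 7 and 5. HDAC5, a class IIa enzyme that shuttles between cytoplasm and nucleus, rose by 0.64 ± 0.12, 0.83 ± 0.13 and 0.87 ± 0.15. SIRT7, an NAD-dependent nucleolar deacetylase, rose by 0.99 ± 0.12, 0.66 ± 0.12 and 0.63 ± 0.15, and lies 87 bp from MAFG. HDAC8, a class I enzyme outside these complexes, was the 1 that fell at 2 h (-0.24), and was named after its values were seen.

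Of 14 ETO-binding factors, 1 rose and 5 fell at 2 h, and 2 fell at each of 6 and 24 h, with medians of -0.15, -0.16 and -0.086. Called shares were 42.9%, 14.3% and 14.3%, against 38.6%, 26.8% and 19.8% of all transcripts. Without both untreated libraries of run 1, 1 rose and 6 fell at 2 h and again at 6 h. At 24 h 1 rose and 2 fell in that refit. RUNX1, whose DNA-binding domain the fusion carries, held 3610 ± 173 CPM in untreated cells and fell at all 3 times (-0.31 ± 0.038, -0.32 ± 0.038 and -0.26 ± 0.047). Reads of the rearranged and the intact RUNX1 allele cannot be told apart in these counts. IRF2BP2 fell at 2 h (-0.60 ± 0.084) and 6 h (-0.44 ± 0.084), and ZNF652 fell at 2 h (-0.48 ± 0.076). TCF3, which encodes an E protein, fell at 24 h (-0.40 ± 0.13). Of 12 other corepressors, TRIM28 rose and TLE4 and BCORL1 fell at 2 h, RBL1 rose and AES fell at 6 h, and 0 were called at 24 h. Called shares were 25%, 16.7% and 0%, and the refit without both untreated libraries of run 1 called 2, 5 and 4.

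For each of the 9 genes, the pair of transcripts with the most similar profile was found by Pearson's r of run-centred log2 gene-body CPM over the 14 libraries, among 9061 transcripts with at least 10 CPM. The libraries share their depth and treatment, so these values describe likeness only. HDAC2 had PAPD4 in its pair (r = 0.986), and TBL1XR1 was most like ITGA4 (0.992) and NT5C2 (0.989). PAPD4 changed by -0.31, -0.18 and -0.28 at the 3 times, beside -0.48, -0.34 and -0.46 for HDAC2. NCOR1 had EEA1 in its pair (0.973). CBFA2T2 was most like ZNF101 (0.971) and GPAM (0.970), and SIN3B like SPG7 (0.968) and TSTA3 (0.953). The values were lower for HDAC3 (RLF, 0.937), CBFA2T3 (C14orf43, 0.925), SIN3A (EEF1B2, 0.898) and HDAC1 (SV2A, 0.893). No member was among the top pair of another.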

How the data were processed

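Read counts per RefSeq transcript in gene bodies and promoter-proximal regions (hg19) were deposited by the authors for 14 tagged libraries, with the authors' log2 fold changes, standard errors, p-values and adjusted p-values. Per the submitters' processing notes, tools included Bowtie2 2.2.2, Trimmomatic 0.32, HOMER, SAMtools, DESeq2 and DESeq. How reads were counted, region limits and strand: not given in the sources used here. The 84 deposited normalized columns were not used, and the 2 parental samples were not analysed here.

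Here counts entered edgeR 4.0.16 under R 4.3.3 (default expression filter, TMM scaling, quasi-likelihood test), in 1 model of all 14 libraries with terms for time and run. P-values were adjusted by Benjamini-Hochberg over all 10304 gene-body or 9980 promoter-proximal transcripts, and called under 0.05. CPM are TMM-scaled. Promoter minus body changes used limma 3.58.1 on log2 CPM (prior count 2). Differences between runs were contrasts of time-and-run means. The scripts were tested on simulated counts. Counting and library spread set the precision; depth is given with the libraries. All 9 members are named, with, from each partner list, up to 3 of smallest adjusted p at each time where called; HDAC8 was named after its values were seen. The members, lists and run term were chosen with earlier results of these data known. Alternatives were no run term, DESeq2 1.42.0 or its size factors, no filter, a threshold of 0.01, only the times compared, run 2 alone, leaving out both 0 h libraries of run 1, gene-body factors near promoters, prior counts of 0.5 and 5, leaving out each library and, added after seeing the data, header letter within run as a block. A few genes that these rules give are not reported here.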

Additional observations from a re-analysis of the deposited data

Results flagged for a closer look

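In 4 of 36 groups of 4 or 5 libraries, 1 library lay far from the others by Dixon's test. Chance would flag about 5% of groups if all libraries of a group varied alike. Each group here pools libraries of different runs, so the count cannot be judged against that share. SIN3A promoter-proximal reads were 187 CPM in untreated library B of run 1, against 76.1 to 107 in the other untreated libraries. The CBFA2T2 gene body held 174 CPM in the untreated library of run 3, against 152 to 157 in the others. The CBFA2T3 gene body held 140 CPM in untreated library B of run 1, against 99.6 to 111. CBFA2T3 promoter-proximal reads were 4.31 CPM in 6 h library B of run 3, a count of 16 reads, against 1.03 to 1.25 in the other 6 h libraries. The 2 h gene-body change was more negative in run 1 than in run 2 for HDAC2 (difference of -0.54) and TBL1XR1 (difference of -0.60), each by an edgeR test of the difference itself, in which the 2 h arm of run 1 is 1 library, assumed to vary like the other groups.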

How the results depend on the processing

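The columns carry letters, not the labels' replicate numbers. In run 2, library A minus B deviated with correlations of -0.0679 to 0.129 between times (6 pairs of times, across 10304 transcripts), so the letters were not taken to pair libraries. A fit chosen after seeing the data, with the letter within run as a replicate block in place of the run term, has 6 blocks, of which 2 hold 1 library. It called 4 members in gene bodies at 2 h (NCOR1 at -0.15, adjusted p = 0.0685), 2 at 6 h (SIN3A at -0.17, 0.0362) and 1 at 24 h, and 2845, 2307 and 1723 transcripts in all, with 5 for 6 h against 2 h and 247 for 24 h against 2 h, in place of 163 and 420; near promoters it called 0, 0 and 1 members. Over 111 values of the 9 genes under 26 alternatives, 2481 values were recomputed. Of these, 2387 kept their side of the threshold, 52 lost a call, 42 gained one and 0 called values reversed. Among those kept, 135 uncalled values changed sign, counted whatever their size. Members called in gene bodies at 2 h were 5, and 3 at a threshold of 0.01, 2 with only the times compared, 1 without the run term (HDAC2) and 3 to 5 with 1 library left out. At 6 h they were 1, and 0 at 0.01, 2 with DESeq2, 4 without the run term, 5 in run 2 alone, 4 without both untreated libraries of run 1 and 0 to 4 with 1 library left out. At 24 h they were 1, and 0 at 0.01 or without the run term, 2 in run 2 alone and 0 to 1 with 1 library left out. For 24 h against 2 h, TBL1XR1 made 1 in place of 0 with only the times compared, in run 2 alone and without both untreated libraries of run 1; for 6 h against 2 h it made 1 in run 2 alone. Near promoters, 0 at 2 h became 1 with DESeq2, 2 in run 2 alone, 2 without both untreated libraries of run 1 and 0 to 2 with 1 library left out. At 6 h 0 became 2 in run 2 alone, 2 without those libraries and 0 to 1 with 1 left out. At 24 h 1 became 0 at 0.01, with gene-body factors, without the run term or with only the times compared, 2 in run 2 alone and 0 to 1 with 1 left out. HDAC2 made 1 for promoter minus body at 24 h in run 2 alone. Members whose 2 h change differed between runs were 1 to 4 with 1 library left out.

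Over all transcripts, calls in gene bodies at 2, 6 and 24 h were 3979, 2762 and 2045; without the run term 1365, 3010 and 1111; at 0.01 2055, 1302 and 844; in run 2 alone 3938, 4383 and 4447; without both untreated libraries of run 1 2546, 3879 and 3053; and with only the times compared 1917, 2828 and 2054. Near promoters they were 460, 224 and 141, and 6, 163 and 20 without the run term, 704, 358 and 242 with DESeq2, 1682, 938 and 1430 in run 2 alone and 199, 133 and 24 with only the times compared. Gene-body size factors near promoters moved the median of all transcripts to -0.16, -0.23 and -0.23 at 2, 6 and 24 h, and left 34, 68 and 22 calls, of which 35.3%, 7.35% and 22.7% were higher, against 52.8%, 35.7% and 44.7%. Under this scaling HDAC2 near its promoter at 24 h was -1.59 (adjusted p = 0.226). The causes of these changes were not tested. Depth limits promoter values most: HDAC3 had 11 to 62 reads there per library.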
